A study of Mus musculus with 12 samples.

Results

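The comparison of circadian time 12 (CT12) with circadian time 0 (CT0) in the liver of liver-specific Bmal1 knockout (KO) mice was taken from 6 RNA-seq libraries, 3 at each time. All 6 samples carried the Bmal1 flox/flox allele, in which loxP sites flank an exon of Bmal1, together with a CRE recombinase driven by a liver-specific promoter, which removes the exons encoding the basic helix-loop-helix domain. The wild-type (WT) mice were Bmal1 flox/flox, with no CRE stated for them, and gave 3 libraries at CT0 and 3 at CT12. Mice of all 4 groups were C57BL/6, were labelled as 8 weeks old, had been kept with free access to food in 12 h of light and 12 h of darkness, and spent the last 2 days in complete darkness. CT0 is the time at which the lights would have come on, and CT12 is 12 h later. The protocol text given with the samples speaks of fewer mice per group than the 3 libraries, whereas the study's methods name as many mice as libraries, so that the number of separate animals behind a group is not certain, and p-values measure the spread between these libraries. Because the recombinase acts only where its promoter is active, other liver cells of the KO mice may still hold intact Bmal1. Of 22322 gene symbols, each represented by the transcript with the highest mean over all 12 libraries, 10614 had a mean of at least 1 RPKM (reads scaled to transcript length in kilobases and to sequencing depth) in KO at CT0 or in KO at CT12 and were tested.

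BMAL1 pairs with CLOCK and binds E-box sequences in the promoters of clock genes, among them the Per and Cry genes, whose proteins feed back on the pair. Many genes of the liver nevertheless change over the day in step with signals that reach the organ from outside, such as feeding, insulin, glucocorticoid hormone and body temperature. In mice, which feed mainly at night, CT12 is the end of the resting phase and CT0 the end of the active phase.

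The deposited values held 11510000 to 14900000 reads per KO library and up to 19040000 per WT library, as recovered from the spacing of the low values. Summed RPKM of 6 hepatocyte markers lay between 28284 and 37534 in every KO library, whereas the adipocyte markers were at 0 in all 6 and the 6 pancreatic acinar markers summed to at most 1.61. KO CT0 replicate 1 stood apart from the other KO libraries, as described at the end, and the KO calls of named genes that were lost without it are given with and without it. Arntl, the gene that encodes BMAL1 (chromosome 7, 120350979 to 120457636 in mm9), had 5.91, 5.73 and 7.45 RPKM in KO at CT0 and 4.37, 3.59 and 4.01 RPKM in KO at CT12. WT had 15.7 to 16.3 RPKM at CT0 and 0.68 to 1.26 RPKM at CT12. Arntl was therefore lower in KO than in WT at CT0 and higher at CT12, and a value over the whole transcript does not separate the deleted exons from the rest.

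Between CT0 and CT12, 268 of the 10614 genes differed in KO liver at an adjusted p-value below 0.05 (limma on log2(RPKM + 1), Benjamini-Hochberg adjustment), which is 2.52% of the genes tested. At CT12, 121 genes were higher (1.14%) and 147 were lower (1.38%). The genes that rose by most included Alas1, Pck1 and Dio1, which serve heme synthesis, glucose output and thyroid hormone activation, and those that fell by most included the estrogen sulfotransferase Sult1e1 and a set of neutrophil genes. Only 56 of the 268 genes moved by at least 1 on the log2 scale. In WT, 1223 of the same genes (11.5%) differed between the times, 385 higher (3.63%) and 838 lower (7.9%) at CT12, a split that became 631 higher and 607 lower with median-ratio scaling and 551 and 575 with quantile normalization. The median difference over all genes tested was -0.00 in KO and -0.07 in WT on the log2 scale. For every gene called in KO the 3 CT12 values lay on the same side of the 3 CT0 values, as they did for 2483 of the genes tested (23.4%). With only the 6 KO libraries in the model, 26 genes were called, 16 higher and 10 lower, with 4 instead of 8 residual degrees of freedom behind the spread. The larger count uses the spread of the WT libraries as well.

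**Figure D1:**
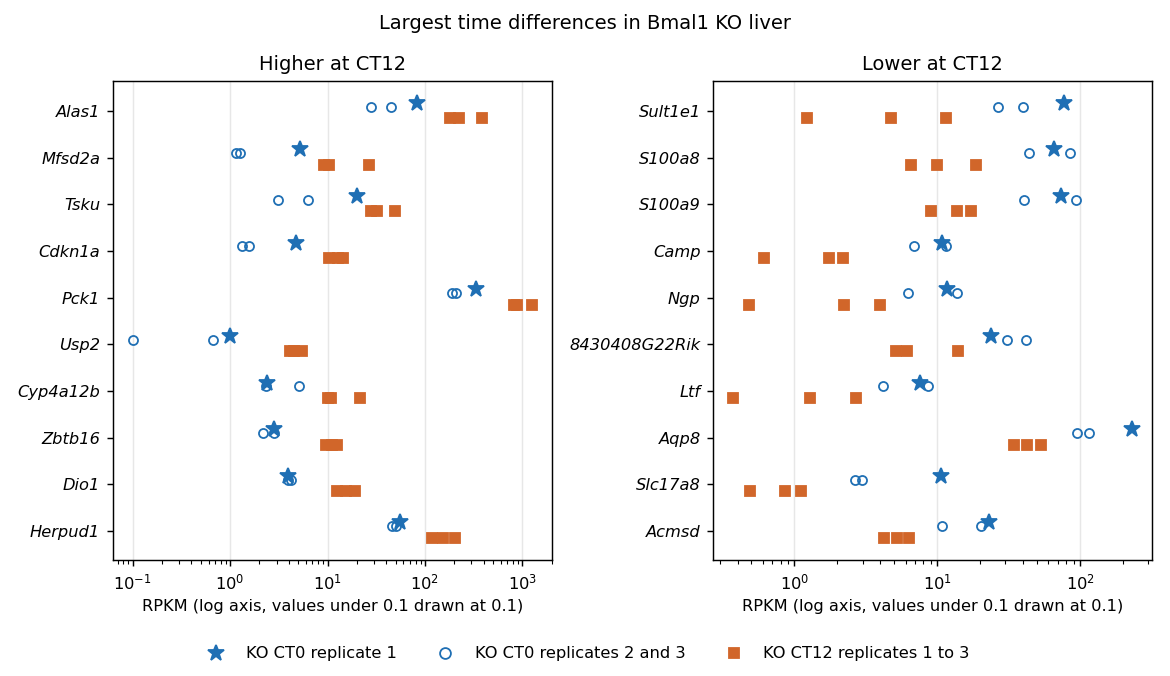
RPKM on a log axis in each of the 6 KO libraries for the 10 genes with the largest rises (left) and the 10 with the largest falls (right) from CT0 to CT12. Genes were shown only if the 3 CT12 libraries (squares) lay on the same side of the 3 CT0 libraries (circles, with replicate 1 as a star). Replicate 1 is the CT0 library nearest to CT12 for every rise shown except Dio1 and Cyp4a12b, by a very small margin for Zbtb16.

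Alas1, the rate-limiting enzyme of heme synthesis in liver (chromosome 9, 106135786 to 106150457), had 81.9, 44.8 and 28.1 RPKM at CT0 and 386, 225 and 183 RPKM at CT12 in KO. Its groups did not overlap, as for every called gene, and it rose by 2.39 ± 0.385 on the log2 scale (SE, limma adjusted p = 0.0115). Pck1, the enzyme that commits carbon to gluconeogenesis (chromosome 2, 172978549 to 172984774), had 337, 209 and 188 RPKM at CT0 and 891, 821 and 1252 RPKM at CT12. This rise was 2.03 ± 0.227 (adjusted p = 0.00145), and every CT12 library held more than 2 times the RPKM of any CT0 library. Dio1, the deiodinase that makes active thyroid hormone (chromosome 4, 106964070 to 106979774), had 3.9, 3.9 and 4.19 RPKM at CT0 and 12.4, 19.1 and 15.5 RPKM at CT12, a rise of 1.72 ± 0.155 (adjusted p = 0.00065). Its 3 CT0 libraries lay close together, and its groups were well apart. Cdkn1a, the cell cycle inhibitor p21 (chromosome 17, 29227924 to 29237667), had 4.71, 1.54 and 1.32 RPKM at CT0 and 12.8, 10.2 and 14.3 RPKM at CT12, and rose by 2.05 ± 0.331 (adjusted p = 0.0117). The CT0 value of replicate 1 was the highest of the 3 for Alas1, Pck1 and Cdkn1a.

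Usp2, a deubiquitinase, had 0.993, 0.662 and 0 RPKM at CT0 and 5.41, 4.57 and 4.09 RPKM at CT12 (1.93 ± 0.213, adjusted p = 0.00145). The transporter of lysophosphatidylcholine Mfsd2a rose by 2.25 (adjusted p = 0.0325), from 1.14 to 5.18 RPKM at CT0 to 9.23 to 26.9 RPKM at CT12. Tsku, a secreted liver protein, rose by 2.09 (adjusted p = 0.0471), and its CT0 values of 20, 3.07 and 6.24 RPKM were the most uneven of the 10. Herpud1, which serves the degradation of misfolded proteins of the endoplasmic reticulum, had 54.8, 50.9 and 46.2 RPKM at CT0 and 153, 119 and 204 RPKM at CT12 (1.60 ± 0.197, adjusted p = 0.00295). The fatty acid hydroxylase Cyp4a12b rose by 1.80 (adjusted p = 0.0209), or by 1.67 with an adjusted p of 0.0531 without KO CT0 replicate 1. Reads of Cyp4a12b may also match its close relative Cyp4a12a, and how such reads were counted is not given in the sources used here.

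Among the falls, Sult1e1, which inactivates estrogens by adding sulfate (chromosome 5, 88004993 to 88020636), had 76.9, 26.6 and 39.8 RPKM at CT0 and 11.4, 4.74 and 1.22 RPKM at CT12 in KO. It fell by 3.04 ± 0.624 on the log2 scale (adjusted p = 0.0303). Both groups were spread over several fold, and without KO CT0 replicate 1 it fell by 2.63 with an adjusted p of 0.0773. Aqp8, a water channel of the hepatocyte (chromosome 7, 130605808 to 130611517), had 233, 95.9 and 116 RPKM at CT0 and 42.7, 34.3 and 53.4 RPKM at CT12, and fell by 1.66 ± 0.313 (adjusted p = 0.0223). Acmsd, an enzyme that diverts tryptophan carbon from NAD synthesis, fell by 1.55 (adjusted p = 0.0223), from 10.9 to 23.1 RPKM to 4.26 to 6.36 RPKM. The vesicular glutamate transporter Slc17a8 fell by 1.62 (adjusted p = 0.0349), and 8430408G22Rik fell by 1.89 (adjusted p = 0.0471). When KO CT0 replicate 1 was left out, 8430408G22Rik fell by 2.08 and was not called (adjusted p = 0.0618), nor was Acmsd, described further at the end.

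The remaining large falls were genes of neutrophils, white blood cells that patrol the liver vessels. S100a8, a subunit of calprotectin, had 65.9, 43.7 and 84.3 RPKM at CT0 and 18.8, 10 and 6.53 RPKM at CT12 in KO (-2.43 ± 0.432, adjusted p = 0.0178). Its partner S100a9 (-2.25), the antimicrobial peptide precursors Camp (-2.12) and Ngp (-1.94) and lactoferrin, Ltf (-1.73), were also lower, with adjusted p = 0.0156, 0.0318, 0.0472 and 0.0343. All 4 listed neutrophil markers (S100a8, S100a9, Camp and Ngp) were thus called lower, beside 1.38% of all genes tested, with a median of -2.18. These 4 genes are themselves among the largest falls, so the count repeats those calls. Their summed RPKM was 161, 97.3 and 203 in the CT0 libraries and 42.3, 27.9 and 16.6 in the CT12 libraries. In whole tissue, fewer cells of a type and less RNA per cell cannot be told apart. The sum was also lower at CT12 in WT, from 29 to 105 down to 5.7 to 7.84 RPKM. There 3 of the 4 genes were called lower, beside 7.9% of all genes tested. Without KO CT0 replicate 1 the median was -2.10 and S100a8 and S100a9 stayed below the threshold, whereas Camp, Ngp and Ltf did not (adjusted p = 0.0755, 0.104 and 0.0862).

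Groups of genes that bear on the liver over the day were then followed, and their lists were drawn up with earlier results of these data known. Of 13 glucocorticoid-responsive genes, 5 rose in KO from CT0 to CT12, beside 1.14% of all genes tested, none fell, and the median was 0.92 on the log2 scale, beside -0.00 for all genes tested. The 5 were Zbtb16, Klf9, Errfi1, Per1 and Tsc22d3. Zbtb16, a transcription factor induced by glucocorticoids (chromosome 9, 48462416 to 48644050), had 2.79, 2.18 and 2.79 RPKM at CT0 and 12.6, 9.68 and 11.2 RPKM at CT12, a rise of 1.76 ± 0.231 (adjusted p = 0.00415). Klf9, a Krüppel-like repressor, had 9.42, 11.6 and 11.7 RPKM at CT0 and 18.2, 18.1 and 18.2 RPKM at CT12, a rise of 0.69 ± 0.0943 (adjusted p = 0.00539). These groups were tight and well apart. Errfi1, a feedback inhibitor of the EGF receptor, had 160, 90.6 and 75.6 RPKM at CT0 and 285, 266 and 249 RPKM at CT12, and rose by 1.36 ± 0.249 (adjusted p = 0.0197). Tsc22d3, the anti-inflammatory mediator GILZ, rose by 1.10 (adjusted p = 0.0318), with 36.7 to 73.6 RPKM at CT0 and 92.3 to 122 RPKM at CT12. Fkbp5, a chaperone of the receptor itself, had 5.61, 4.43 and 4.38 RPKM at CT0 and 18.3, 7.29 and 11.5 RPKM at CT12, with an adjusted p of 0.065. Mt1 and Mt2, the metallothioneins, varied by more than their group means differed, with adjusted p = 0.724 and 0.728. Without KO CT0 replicate 1 the same 5 genes were called and the median of the list was 0.86. In WT, 5 of the 13 genes were higher at CT12, beside 3.63% of all genes, and Klf9 was the member whose time difference itself differed between genotypes (0.71, adjusted p = 0.0216), with 15.2 to 17.8 RPKM at CT0 and 15.7 to 16.8 RPKM at CT12 in WT.

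Genes of actin, tubulin and the serum response factor (SRF) moved the other way. SRF binds CArG boxes and drives genes of the actin cytoskeleton. Of 20 tested genes of the list, 5 fell (Tagln2, Tuba1a, Tuba4a, Vcl and Actb), beside 1.38% of all genes tested, none rose, and the median was -0.52 on the log2 scale. Vcl, vinculin, which ties actin to the membrane (chromosome 14, 21748655 to 21852895), had 11.8, 11.9 and 11.4 RPKM at CT0 and 7, 8.19 and 7.98 RPKM at CT12 in KO, and fell by 0.54 ± 0.0805 (adjusted p = 0.00746). Its CT0 libraries were close together and all above the CT12 libraries. Actb, cytoplasmic beta-actin and a common reference gene (chromosome 5, 143664794 to 143668433), had 806, 806 and 931 RPKM at CT0 and 535, 653 and 589 RPKM at CT12, and fell by 0.52 ± 0.0984 (adjusted p = 0.0223), or by 0.44 with an adjusted p of 0.0663 after quantile normalization. Tagln2, an actin-binding protein, fell by 0.97 (adjusted p = 0.0209), as did the tubulins Tuba1a (-0.86) and Tuba4a (-0.55), with adjusted p = 0.0322 and 0.0239. Srf itself had 1.34 to 1.85 RPKM at CT0 and 1.93 to 2.08 RPKM at CT12 (0.17, adjusted p = 0.413). The other reference gene, Gapdh, had 983, 471 and 596 RPKM at CT0 and 383, 425 and 430 RPKM at CT12, with an adjusted p of 0.102. In WT, 14 of the 20 genes were lower at CT12, beside 7.9% of all genes, and the median was -0.68. Without KO CT0 replicate 1 the KO median was -0.34 and 4 genes were called, Tuba4a having an adjusted p of 0.0527. Markers of several other liver cells had negative medians as well, whereas the median of the 5 erythroid markers was 0.31. The 6 stellate cell and fibroblast markers all had negative differences, none of them called, with a median of -0.54 and a summed RPKM of 163 to 194 at CT0 and 118 to 153 at CT12. The 6 sinusoidal endothelial markers had a median of -0.50 and the 9 Kupffer cell markers a median of -0.38, with no call in either. Their summed RPKM overlapped between the times. It was 102 to 112 at CT0 and 48.7 to 115 at CT12 for the endothelial markers, and 194 to 283 and 144 to 248 for the Kupffer cell markers. The part of these cells in the fall of the actin genes was not tested.

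The promoters of this list are shown where they hold a CArG box, because its genes moved together. Promoters (250 bases before to 50 after the start, RefSeq, build GRCm38.p6) were at hand for 18 of the 22 listed genes, and 3 of them (16.7%) held a CArG box on either strand, beside 488 of 27025 promoters of all genes (1.81%). The 3 promoters belonged to Vcl, which fell, and to Actg1 and Srf, which did not pass the test. Because the list was drawn up to hold SRF genes, its higher share can come from that choice. Among promoters of genes tested, 111 of 7693 (1.44%) held a CArG box. Capitals mark the CArG boxes in the stretches below, read 5′ to 3′ on the strand of the gene.
Vcl CArG box, chr14:20929148-20929220, plus strand: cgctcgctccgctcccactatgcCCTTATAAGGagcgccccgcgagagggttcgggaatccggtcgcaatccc
Actg1 CArG box, chr11:120348536-120348625, minus strand: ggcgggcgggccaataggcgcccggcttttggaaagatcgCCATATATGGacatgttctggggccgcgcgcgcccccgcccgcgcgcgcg
Srf CArG box, chr17:46556175-46556264, minus strand: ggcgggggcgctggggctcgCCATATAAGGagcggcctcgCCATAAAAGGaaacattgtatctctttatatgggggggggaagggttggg
Among the promoters of genes that rose in KO, 3 of 88 (3.41%) held a CArG box, and among those of genes that fell, 2 of 115 (1.74%). A match is a description of these letters and does not show that SRF binds there.

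**Figure D2:**
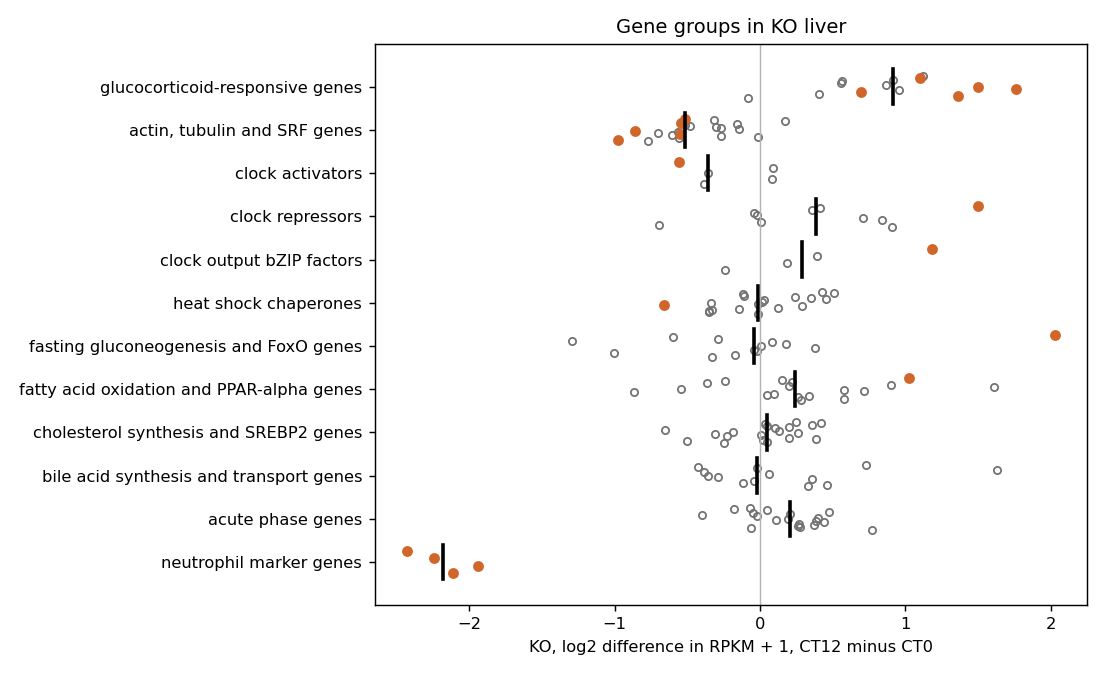
Log2 difference in RPKM + 1 between CT12 and CT0 in KO liver for each tested gene (circle) of 12 groups, with genes called by limma as filled circles and the median of a group as a vertical line. The glucocorticoid-responsive genes lie mainly to the right with a median of 0.92, the actin, tubulin and SRF genes to the left with a median of -0.52, and all 4 neutrophil markers at the far left.

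Of the clock genes, 3 changed with time in KO, 1 each of 5 activators, 10 repressors and 4 output factors tested. Of all genes tested, 2.52% were called. Arntl fell by 0.56 ± 0.13 (adjusted p = 0.0474), and its difference in WT was -3.06. Per1, which is both a clock repressor and a glucocorticoid-responsive gene (chromosome 11, 68908719 to 68923462), had 3.52, 0.566 and 1.41 RPKM at CT0 and 7.97, 5.94 and 5.16 RPKM at CT12, a rise of 1.50 ± 0.308 (adjusted p = 0.0303). In WT, Per1 rose by 2.48, and the difference between the genotypes was not significant (-0.98, adjusted p = 0.387). Dbp, a transcription factor of the clock output, had 1.51, 1.84 and 1.63 RPKM at CT0 and 3.29, 8.11 and 4.66 RPKM at CT12, a rise of 1.19 ± 0.266 (adjusted p = 0.0409) beside 3.59 in WT. Without KO CT0 replicate 1 the adjusted p was 0.00274 for Per1, 0.0918 for Dbp and 0.0714 for Arntl. The other clock repressors did not pass the test in KO. Cry1 had 16.5 to 17.5 RPKM at CT0 and 16 to 17.7 RPKM at CT12, and Cry2 had 7.32 to 8.56 and 6.99 to 8.67 RPKM. Per2 had a difference of 0.41 (adjusted p = 0.227), Per3 of 0.36 (adjusted p = 0.246), Nr1d1 of 0.71 (adjusted p = 0.228), Nr1d2 of 0.84 (adjusted p = 0.0642) and Gm129 of 0.91 (adjusted p = 0.145). Bhlhe40 (0.01) and Bhlhe41 (-0.69) did not pass either, with adjusted p = 0.983 and 0.563. Clock had 12.4 to 13.8 RPKM at CT0 and 13.6 to 14.3 RPKM at CT12 in KO. Its paralog Npas2 (-0.36), the nuclear receptor gene Rora (0.08) and the outputs Hlf (0.18) and Nfil3 (-0.24) had adjusted p-values of 0.111, 0.714, 0.581 and 0.395.

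The E-box of the Per1 promoter is shown because Per1 rose in livers without hepatic BMAL1. Capitals mark the E-box (CACGTG, which reads the same on both strands), 166 bases before the start site of the RefSeq transcript in GRCm38.p6.
Per1 E-box, chr11:69098743-69098828, plus strand: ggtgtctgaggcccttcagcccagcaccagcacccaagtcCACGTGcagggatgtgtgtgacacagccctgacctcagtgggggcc
An E-box stood in 925 of 7693 promoters of tested genes (12.0%), in 10 of 88 promoters of genes that rose in KO (11.4%), in 15 of 115 of genes that fell (13.0%) and in 5 of 16 of the listed clock genes (31.2%). The shares among the genes that moved in KO were near that of the genes tested.

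In the metabolic groups the calls were of single genes or a pair, to be read beside the 2.52% of all genes tested. Srebf1, the transcription factor that drives fatty acid synthesis under insulin (chromosome 11, 60012591 to 60036083), had 104, 71.6 and 86.2 RPKM at CT0 and 39.7, 36.3 and 31.4 RPKM at CT12 in KO, and fell by 1.25 ± 0.207 (adjusted p = 0.0129). The libraries of the 2 times were well apart. In WT it had 63.5 to 80.2 RPKM at CT0 and 58.8 to 106 RPKM at CT12, with a difference between genotypes of -1.28 (adjusted p = 0.0597). Mlxipl, which encodes the glucose-sensing factor ChREBP, had 83.7, 40.6 and 43.1 RPKM at CT0 and 29.4, 22.6 and 25 RPKM at CT12, and fell by 1.02 ± 0.227 (adjusted p = 0.0388). Both stayed called without KO CT0 replicate 1, with differences of -1.12 and -0.69 and adjusted p = 0.0362 and 0.041. Cpt1a, the gate of fatty acid entry into mitochondria, had 29.9, 42.6 and 34.8 RPKM at CT0 and 63.7, 72.3 and 85.1 RPKM at CT12, and rose by 1.03 ± 0.148 (adjusted p = 0.00642), as the only call among 18 fatty acid oxidation genes. Pck1 was the only call among 13 genes of fasting and FoxO. Of 20 endoplasmic reticulum genes, Herpud1 rose and the chaperone calreticulin, Calr, fell by 0.43 (adjusted p = 0.0477). Single calls came from 10 NRF2 genes (Hmox1, heme oxygenase, -0.74, adjusted p = 0.0193), 18 amino acid and urea cycle genes (Amd1, of polyamine synthesis, 0.67, adjusted p = 0.0129) and 19 heat shock chaperones (Hspa4l, -0.66, adjusted p = 0.0362, and 0.0714 without KO CT0 replicate 1). No gene was called among 20 cholesterol synthesis genes, 19 acute phase genes, 13 bile acid genes, 13 growth hormone and STAT5 genes, 9 mitochondrial quality control genes, 7 immediate early genes or the 2 cold-induced genes. In those lists 2, 4, 6, 1, 1, 1 and 1 genes had an unadjusted p-value below 0.05, beside 2144 of all genes tested, and 1 bile acid gene was called when KO CT0 replicate 1 was left out. The 9 elongases and desaturases held 1 call, Elovl3, the 13 cell cycle genes held Cdkn1a, and the 18 xenobiotic genes held Alas1 and Sult1e1. Of the remaining marker lists, the periportal one held Pck1, and no call came from 6 hepatocyte, 6 pericentral, 3 cholangiocyte or 5 erythroid markers, of which 1, 2, 1 and 0 had an unadjusted p-value below 0.05.

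The time differences in KO were set beside those in WT. Of the 268 genes, 149 were called in WT in the same direction, which is 55.6% of the KO calls and 12.2% of the WT calls, 56 of them higher and 93 lower at CT12. Over all genes tested, 11.5% were called in WT in either direction. Both comparisons use the same estimate of the spread of a gene, so their calls are not independent. Another 116 were not called in WT, of which 92 had the same sign there, and 3 were called in the opposite direction. The share of same signs over all genes tested was not taken. The test of the difference between the genotypes called 156 of the 10614 genes (1.47%), and 19 of the 268. Elovl3, an elongase of very long chain fatty acids, had 84, 97.6 and 85.9 RPKM at CT0 and 239, 295 and 185 RPKM at CT12 in KO (1.40 ± 0.162, adjusted p = 0.002). In WT it had 84.5 to 118 RPKM at CT0 and 7.13 to 7.31 RPKM at CT12, so that the levels at CT0 overlapped between genotypes and those at CT12 were far apart. Dirc2, a lysosomal transporter, had 5.83, 7.32 and 7.1 RPKM at CT0 and 9.9, 9.48 and 10.4 RPKM at CT12 in KO, and rose by 0.50 (adjusted p = 0.0378), whereas it fell by 0.51 in WT. Inmt, an N-methyltransferase, had 427, 420 and 338 RPKM at CT0 and 244, 235 and 297 RPKM at CT12 in KO (-0.61, adjusted p = 0.0239), whereas it rose by 0.78 in WT. Without KO CT0 replicate 1 the KO differences of Dirc2 (0.41, adjusted p = 0.0951) and Inmt (-0.55, adjusted p = 0.0609) were not called, and that of Elovl3 was.

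Of the 116 genes not called in WT, 7 had a time difference that differed between the genotypes. They were Cdkn1a, Klf9, Btg3, Cars, Rabggtb, Spg20 and Uox, which were chosen after their values were seen. Cdkn1a had 1.32 to 2.47 RPKM at CT0 and 0.227 to 1.52 RPKM at CT12 in WT, against 10.2 to 14.3 RPKM at CT12 in KO, and the difference was 2.77 (adjusted p = 0.0123). Btg3, another antiproliferative gene, had 1.52, 2.86 and 2.76 RPKM at CT0 and 8.32, 7.35 and 4.8 RPKM at CT12 in KO, and the difference was 1.54 (adjusted p = 0.0472). Uox, urate oxidase, had 1119, 1018 and 907 RPKM at CT0 and 538, 627 and 673 RPKM at CT12 in KO, beside 935 to 1169 and 1231 to 1473 RPKM in WT, and the difference was -1.03 (adjusted p = 0.0136). The KO differences without KO CT0 replicate 1 of Btg3 (1.01, adjusted p = 0.0647) and Rabggtb (0.50, adjusted p = 0.0553) were not called. For the remaining genes not called in WT, the difference between the genotypes did not pass the test. Dio1 was called in both, but on the log2 scale it rose by more in KO (1.14, adjusted p = 0.0244), from a lower level than in WT, whose CT0 libraries had 36.2 to 39.2 RPKM. Its mean went from 3.99 to 15.7 RPKM in KO and from 37.7 to 57.4 RPKM in WT, so the rise in RPKM was not larger in KO.

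**Figure D3:**
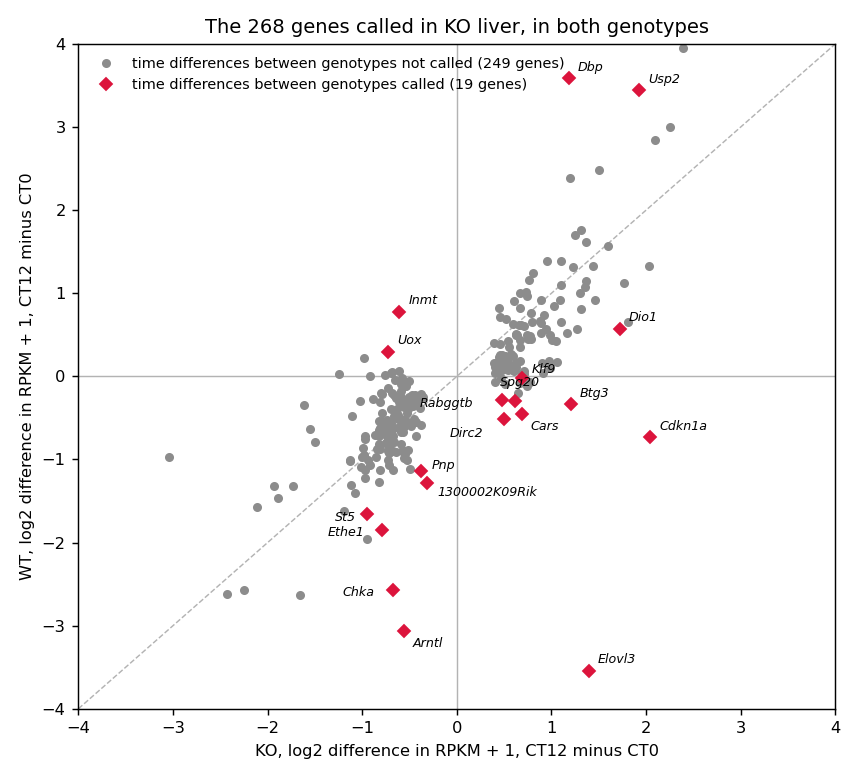
Log2 difference in RPKM + 1 between CT12 and CT0 in KO (horizontal axis) and in WT (vertical axis) for the 268 genes called in KO, with the dashed line marking equal values. The 19 genes whose time difference differed between the genotypes are shown as diamonds with their symbols, and Elovl3 lies lowest on the right, at 1.40 in KO and -3.54 in WT.

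KO CT0 replicate 1 differed most from its group. In 92 of the 10614 genes it lay at least 1 log2 unit from both other KO CT0 libraries, above them in 70 and below in 22, and the next library in this respect had 54. The weight that limma gave it from its overall spread was 0.511, the lowest of the 12 libraries. Its depth, 14900000 reads, was the highest among the KO libraries. The genes farthest above were Me1 (139, 7.72 and 16.2 RPKM in replicates 1, 2 and 3), Elovl6 (185, 16.5 and 21.8 RPKM), Thrsp (912, 82.9 and 133 RPKM), Acot11 (11.8, 1.28 and 0.529 RPKM) and Chrna4 (13.9, 1.55 and 1.68 RPKM). Me1 supplies NADPH for fatty acid synthesis, Elovl6 lengthens palmitate, and Thrsp is a lipogenic nuclear protein. Farthest below were Lars2 (9.28, 268 and 1263 RPKM), Camk1d (71.8, 895 and 3873 RPKM), Slc13a5, Selenbp2 and Dpysl4. Lars2 and Camk1d also varied widely among libraries of WT at CT0, where Lars2 had 1288, 982 and 6.3 RPKM and Camk1d 3873, 3070 and 55.7 RPKM.

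Of the gene lists, the lipogenesis genes were those in which this library lay farthest from the other 2, with a median of 2.14 log2 units above their mean. It was above both other KO CT0 libraries in 15 of 16 tested genes and by at least 1 log2 unit in 12. Fasn, fatty acid synthase, had 536, 89 and 100 RPKM at CT0 and 60.9, 44.8 and 34.6 RPKM at CT12. Acly, which makes cytosolic acetyl-CoA, had 1059, 177 and 220 RPKM at CT0 and 122, 115 and 106 RPKM at CT12. Scd1, stearoyl-CoA desaturase, had 4066, 835 and 1322 RPKM at CT0 and 656, 275 and 654 RPKM at CT12. In these 3 genes the 2 other CT0 libraries also lay above all CT12 libraries, and the adjusted p-values were 0.118, 0.115 and 0.0788 with replicate 1 and 0.233, 0.134 and 0.139 without it. The median difference of the list was -1.41 with replicate 1 and -0.73 without it, and the same 2 genes, Srebf1 and Mlxipl, were called in both fits. The median of the list in WT was -0.24. The 19 heat shock chaperones were all above both others, none by 1 log2 unit, with a median of 0.36, and the 2 cold-induced genes lay lower, with a median of -0.82. The cholesterol synthesis genes were above both others in 16 of 20 genes, but by 1 log2 unit in only 1, and the share over all genes tested was 4750 of 10614 (44.8%). What sets this library apart was not tested.

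**Figure D4:**
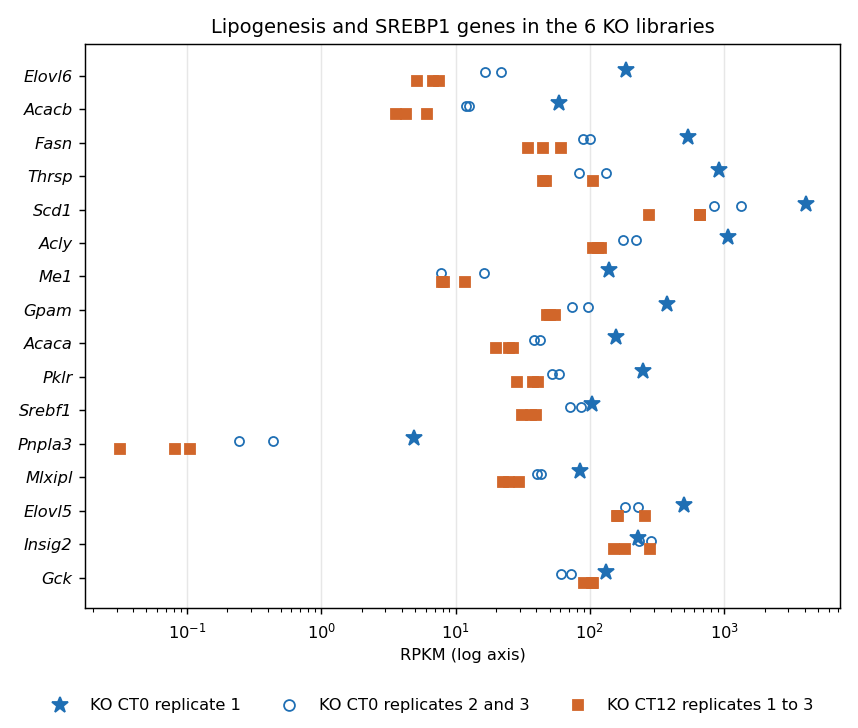
RPKM on a log axis of the 16 tested lipogenesis and SREBP1 genes in the 6 KO libraries. Replicate 1 of CT0 (star) is the rightmost point for all genes except Insig2, the other 2 CT0 libraries (circles) lie above the CT12 libraries (squares) for most, and Srebf1 is the gene in which the 3 CT0 libraries lie closest together while staying apart from CT12.

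Leaving KO CT0 replicate 1 out of the fit gave 164 called genes. Of the 268, 116 remained and 152 were lost, 58 of them higher and 94 lower at CT12, whereas 48 were gained. Of the 92 genes in which the library stood apart, 6 were among the 268, namely Slc17a8, Tsku, Mfsd2a, Cdkn1a, Ccrn4l and Aqp8. This stands beside 268 calls in the 10614 genes tested (2.52%). Among the genes lost, the difference moved most for Sult1e1, Tlcd1, Tmie, Ddo and Acmsd. Tlcd1, of membrane lipid composition, had 30.4, 18.1 and 15.8 RPKM at CT0 and 9.71, 11.6 and 10.9 RPKM at CT12, and its difference went from -0.89 (adjusted p = 0.0422) to -0.62 (adjusted p = 0.0605). Tmie, a membrane protein, went from -0.98 (adjusted p = 0.0396) to -0.71 (adjusted p = 0.0757), Ddo, D-aspartate oxidase, from -0.98 (adjusted p = 0.0281) to -0.75 (adjusted p = 0.0531), and Acmsd from -1.55 to -1.35 (adjusted p = 0.0559). Replicate 1 was the highest of the 3 CT0 libraries in 50 of the 94 falls lost (53.2%) and in 22 of the 53 kept (41.5%), beside 44.8% of all genes tested. Leaving out the highest CT0 library must shrink a fall, so this split follows in part from arithmetic.

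Rises moved differently. Replicate 1 was the highest CT0 library, and so the nearest to CT12, in 40 of the 63 rises kept without it (63.5%) and in 12 of the 58 lost (20.7%). Over all genes tested it was the highest in 4750 of 10614 (44.8%). The split between rises kept and lost thus also follows in part from arithmetic. The rise of Alas1 grew from 2.39 to 2.79, that of Tsku from 2.09 to 2.74, that of Mfsd2a from 2.25 to 2.75 and that of Cdkn1a from 2.05 to 2.46, with adjusted p = 0.00345, 0.00346, 0.0145 and 0.00197 without the library. Gained with the lowest adjusted p-values were Coq10b, Ccnf, Mbd1, Cldn1 and Cebpb. Coq10b, of coenzyme Q function, had 8.68, 4.54 and 3.12 RPKM at CT0 and 11.2, 10.4 and 11.2 RPKM at CT12, and went from 0.98 (adjusted p = 0.0502) to 1.32 (adjusted p = 0.00197). The cyclin Ccnf went from 0.76 (adjusted p = 0.0759) to 1.06 (adjusted p = 0.00345), the methyl-CpG-binding factor Mbd1 from 0.52 (adjusted p = 0.09) to 0.72 (adjusted p = 0.0105), and the transcription factor Cebpb from 0.72 (adjusted p = 0.0767) to 0.97 (adjusted p = 0.0122). The tight junction gene Cldn1 had 22.7, 39 and 38.4 RPKM at CT0 and 17.6, 24 and 23.9 RPKM at CT12, and went from -0.56 (adjusted p = 0.115) to -0.81 (adjusted p = 0.0118).

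Other libraries changed the count by more. Without KO CT12 replicate 1, 67 genes were called, without KO CT0 replicate 3, 72, and without KO CT12 replicate 2, 98. Leaving out KO CT0 replicate 2 gave 269 genes, of which 178 were among the 268, and leaving out KO CT12 replicate 3 gave 188. Leaving out a WT library, which enters only through the estimate of the spread, gave 172 to 248. No called gene could change sign in these 12 fits, because its 3 CT12 values all lay on the same side of its 3 CT0 values. In the 6 KO libraries alone, leaving out KO CT0 replicate 1 raised the count from 26 to 44.

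**Figure D5:**
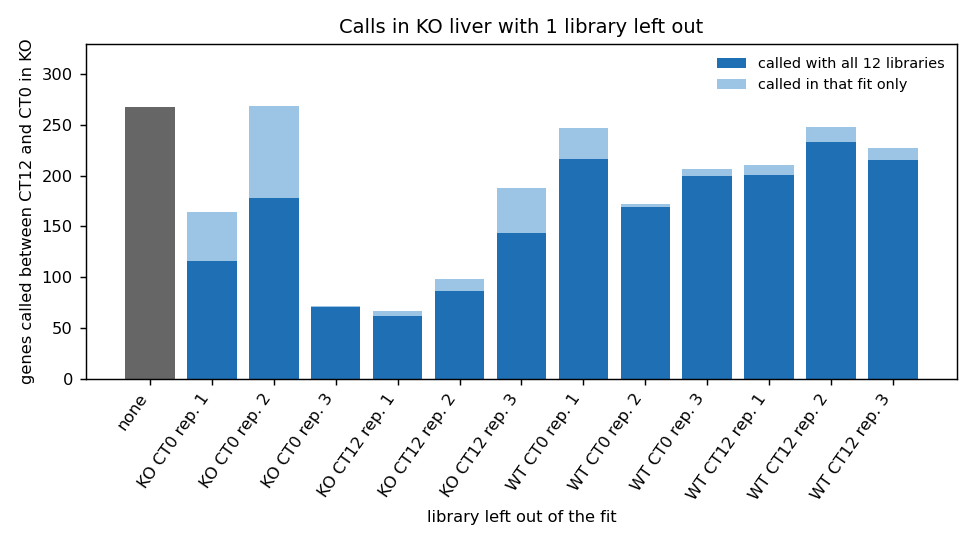
Number of genes called between CT12 and CT0 in KO liver when no library (grey) or the named library is left out of the fit, with genes that are also called with all 12 libraries in dark blue and the others in light blue. The count falls from 268 to 164 without KO CT0 replicate 1 and to 67 to 98 without KO CT0 replicate 3, KO CT12 replicate 1 or KO CT12 replicate 2.

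A smaller set of genes did not depend on any single library. In all 12 fits that left out 1 library, 46 genes were called, 27 higher and 19 lower at CT12, and 16 were called under each of the 23 alternative fits that were run. The minimum log2 difference of 1 is not among these fits, and St5, Grb7, Ptk6 and Sept9 did not reach it. The 9 rises among these 16 were Pck1, Usp2, Zbtb16, Dio1, Herpud1, Il6ra, Pfkfb2, Yod1 and Trp53inp2, and the 7 falls were Srebf1, Mustn1, Serpinh1, Ptk6, Sept9, St5 and Grb7, of which those not described above were chosen after their values were seen. Il6ra, the receptor of interleukin 6 (chromosome 3, 89673246 to 89717084), had 2.43, 3.09 and 2.3 RPKM at CT0 and 8.96, 8.29 and 8.95 RPKM at CT12, a rise of 1.44 ± 0.141 (adjusted p = 0.00065) beside 1.33 in WT. Pfkfb2, which sets the level of the glycolytic activator fructose 2,6-bisphosphate, had 6, 6.16 and 5.9 RPKM at CT0 and 15.5, 12.9 and 14 RPKM at CT12, a rise of 1.11 ± 0.106 (adjusted p = 0.00065). Yod1, a deubiquitinase whose gene lies within the span of Pfkfb2 on the other strand, rose by 1.09 (adjusted p = 0.00145), and reads of these overlapping genes cannot be told apart without strand. Serpinh1, the collagen chaperone HSP47, had 5.63, 5.15 and 5.9 RPKM at CT0 and 2.21, 2.17 and 2.46 RPKM at CT12, and fell by 1.001 ± 0.11 (adjusted p = 0.00145). Mustn1, of muscle and skeletal tissue, fell by 1.13 (adjusted p = 0.00065), as did the kinase gene Ptk6 (-0.99) and the septin gene Sept9 (-0.97), with adjusted p = 0.00291 and 0.00868. St5, a regulator of small GTPases, had 18.7, 18 and 17.1 RPKM at CT0 and 8.63, 9.03 and 8.82 RPKM at CT12, and fell by 0.94 ± 0.0753, with the lowest adjusted p-value of all genes tested in KO (0.00034). In WT it fell by 1.65, and the difference between the genotypes was 0.71 (adjusted p = 0.0068). Grb7, an adaptor of receptor tyrosine kinases, fell by 0.87 (adjusted p = 0.00295), and Trp53inp2, of autophagy, rose by 1.01 (adjusted p = 0.00847).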

How the data were processed

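Per the labels, total RNA of 12 liver samples was extracted with Trizol and made into TruSeq RNA v2 libraries, and groups and replicate numbers came from the sample titles. The authors deposited 1 RPKM table per library, with 46585 transcript rows each, and the submitters' processing notes name TopHat2, bedtools 2.19.1 and mm9. How reads shared between transcripts were counted is not given in the sources used here. For each of 22322 symbols the row with the highest mean over all 12 libraries was kept, which can be a short transcript. Examples are Dio1 (396 bases), Actb (401 bases), Per1 (496 bases) and Mlxipl (542 bases). RPKM values are those of the row kept, whereas positions are those of the gene. Testing was limited to the 10614 genes whose KO mean reached 1 RPKM at either time. With limma 3.58.1 in R 4.3.3, the means of the 4 groups were estimated from log2(RPKM + 1) of all 12 libraries (eBayes with a trend). Benjamini-Hochberg adjustment covered all tested genes, and the threshold was 0.05. The pseudocount of 1 shrinks the fold changes of low genes. Depth was recovered from low values, of which 95.7% to 96.4% per library were whole multiples of 1 read within 0.05 reads. Gene positions came from GENCODE vM1 (NCBIM37), which gave 95.3% of the symbols an identifier. The fit was tested on simulated data. Named genes were the 10 largest rises and falls whose groups did not overlap, genes called in opposite directions in the 2 genotypes, up to 4 called genes per list, the clock and reference genes, the genes most changed by leaving out KO CT0 replicate 1 (5 lost, 5 gained) and the 5 farthest above and below in it. Genes named outside these rules were chosen after their values were seen. The gene lists and members were chosen with earlier results of these data known. Among the clock genes, 2 are not reported here. Alternatives were another pseudocount, filters, normalizations, a replicate block, array weights, a robust prior, summed rows, a fold change limit, only the KO libraries and leaving out each library.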

Additional observations from a re-analysis of the deposited data

Results flagged for a closer look

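The time difference of 22 named genes differed between KO and WT by the limma test of that difference (adjusted p-value below 0.05). The same test called 156 of all 10614 genes tested (1.47%). Btg3, Cars, Rabggtb, Spg20, Uox and St5 were named after their values were seen. Elovl3, Dirc2 and Inmt were named for opposite calls in KO and WT. The count of 22 is therefore partly set by how genes were named. All values are KO minus WT of the CT12 minus CT0 difference on the log2(RPKM + 1) scale. Positive values were found for Elovl3 (4.93), Cdkn1a (2.77), Arntl (2.50), Cldn1 (1.60), Btg3 (1.54), Npas2 (1.29), Dio1 (1.14), Cars (1.14), Dirc2 (1.01), Clock (0.98), Spg20 (0.91), Rabggtb (0.76), Klf9 (0.71) and St5 (0.71). Of these, Arntl, Npas2, Cldn1 and St5 had a larger negative difference in WT than in KO, and Clock was called lower in WT but not called in KO (0.09), whereas the KO difference was positive for Cdkn1a, Btg3, Cars, Spg20, Rabggtb and Klf9, none of which was called in WT. Elovl3 and Dirc2 were called in opposite directions, and Dio1 rose in both genotypes. Negative values were found for Gm129 (-3.11), Dbp (-2.41), Per3 (-2.19), Per2 (-1.87), Usp2 (-1.52), Inmt (-1.39), Bhlhe40 (-1.34) and Uox (-1.03). Gm129, Dbp, Per3, Per2, Bhlhe40 and Usp2 rose in WT, with a smaller positive difference in KO, while Inmt and Uox fell in KO and had a positive difference in WT.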

How the results depend on the processing

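Of 1380 alternative values for the 60 named genes past the threshold in KO, 1053 kept their call and 327 lost it. The minimum log2 difference of 1 is not counted in these values. Some of the 60 genes were named because all 23 alternative fits called them, so these counts do not stand for the 268 calls. Of the 268, 46 were called in all 12 fits that left out 1 library. No value changed sign, which leaving out 1 library could not bring about in a called gene. The KO count of 268 became 56 with a minimum log2 difference of 1, 161 with no filter on low values, 26 with only the 6 KO libraries and 44 with those but without KO CT0 replicate 1, and leaving out 1 library at a time from the full set gave 67 to 269. The count for the difference between genotypes (156) became 87 with a minimum log2 difference of 1 and 82 to 143 without 1 library. The WT count (1223) became 1952 with array weights, 202 with a minimum log2 difference of 1 and 633 to 1361 without 1 library. Genes higher at CT12 were 31.5% of the WT calls, but 51.0% (631 higher, 607 lower) after median-ratio scaling and 48.9% (551 higher, 575 lower) after quantile normalization, and the positive share of the genotype differences went from 73.7% to 56.2% (81 and 63 genes) and 61.0% (86 and 55 genes). A replicate block gave 234 calls in KO, 125 for the difference between genotypes and 1163 in WT. The numbers were not treated as pairs, since the KO correlations of same-numbered deviations were 0.081, 0.0025 and 0.014. Of the 37 named genes not past the threshold in KO, 9 changed sign in at least 1 fit. Without 1 library, their log2 differences ranged from -0.93 to 0.61 for Acot11, -0.14 to 0.23 for Bhlhe40, -2.29 to 0.69 for Camk1d, -0.079 to 0.058 for Cry2, -0.17 to 0.85 for Dpysl4, -2.73 to 1.07 for Lars2, -0.46 to 1.56 for Mt1, -0.66 to 2.39 for Mt2 and -0.45 to 0.59 for Slc13a5. Array weights gave 0.25 for Acot11 and -0.079 for Slc13a5. The cause was not tested for any of these changes. The fit on 6 libraries also has fewer degrees of freedom, and the part of this in its lower count was not tested. With 3 libraries a group, 1 library decided many calls.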
